A study of Mus musculus with 9 samples.

Results

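The 10 genes described here, Hk1, Hk2, Gpi1, Pfkl, Pfkp, Aldoa, Aldoc, Pgk1, Eno1 and Ldha, encode enzymes of glycolysis that are known targets of hypoxia-inducible factor (HIF). They were taken from the arrays as every non-control probe that carries one of these gene names, which gave 29 of 56573 probes. Of these, 26 probes of 9 genes passed the filter on dim probes and entered a test over 24161 features, each a gene or an unnamed probe. Hk2 did not pass. The genes were measured in glomeruli, the capillary tufts that filter blood in the kidney, which had been pulled down with magnetic beads from BTBR males aged 22 weeks. The first group was ob/ob mice, which lack leptin, fed enarodustat for 18 weeks. The second was ob/ob mice fed vehicle food, and the third was wild-type BTBR mice fed vehicle food, with 3 one-colour arrays in each group. Whether a sample held 1 mouse or several is not stated in the labels, so each test measures the spread between these samples.

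Glycolysis splits glucose into pyruvate, and lactate dehydrogenase turns pyruvate into lactate. HIF is a transcription factor whose alpha subunit is marked for degradation by prolyl hydroxylases when oxygen is present. Enarodustat inhibits these hydroxylases, and the genes of most glycolytic steps are classical HIF targets. HIF binds the core letters ACGTG or GCGTG in hypoxia response elements.

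To show where these letters lie beside genes that differed in their measurements, the 250 bases before a RefSeq start are printed for 4 genes, read along the gene and on build GRCm38.p6. Ldha and Aldoc each have another window, not printed, that held 1 GCGTG and no ACGTG. Capitals mark every ACGTG or GCGTG on either strand, so that the palindrome CACGTG counts as 2 matches of ACGTG. Ldha lies at chr7:46845554-46845803 on the plus strand, Pgk1 at chrX:106186850-106187099 on the plus strand, Aldoc at chr11:78322823-78323072 on the plus strand and Gpi1 at chr7:34230337-34230586 on the minus strand.
Ldha: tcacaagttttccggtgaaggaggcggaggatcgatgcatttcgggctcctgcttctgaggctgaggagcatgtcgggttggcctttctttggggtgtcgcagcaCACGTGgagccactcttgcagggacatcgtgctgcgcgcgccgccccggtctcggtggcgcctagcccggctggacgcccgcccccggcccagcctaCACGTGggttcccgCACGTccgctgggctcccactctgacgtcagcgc
Pgk1: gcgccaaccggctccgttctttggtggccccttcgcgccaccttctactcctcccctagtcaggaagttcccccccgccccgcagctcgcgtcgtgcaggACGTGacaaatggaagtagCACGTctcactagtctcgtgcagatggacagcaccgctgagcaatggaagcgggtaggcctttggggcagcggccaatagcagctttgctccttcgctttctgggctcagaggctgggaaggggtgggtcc
Aldoc: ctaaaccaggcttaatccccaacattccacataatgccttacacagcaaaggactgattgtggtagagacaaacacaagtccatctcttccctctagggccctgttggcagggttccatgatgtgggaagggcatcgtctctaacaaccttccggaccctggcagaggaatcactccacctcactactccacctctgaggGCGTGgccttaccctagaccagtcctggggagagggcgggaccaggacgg
Gpi1: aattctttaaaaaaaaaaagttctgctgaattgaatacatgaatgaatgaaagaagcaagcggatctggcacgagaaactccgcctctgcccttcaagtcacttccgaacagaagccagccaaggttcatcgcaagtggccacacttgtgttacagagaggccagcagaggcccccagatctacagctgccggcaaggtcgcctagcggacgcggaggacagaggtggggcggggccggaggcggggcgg
The Ldha window held 5 matches of ACGTG, between 34 and 145 bases before the start. The Pgk1 window held 2, at 150 and 131 bases. The Aldoc window held no ACGTG and 1 GCGTG at 50 bases, and the Gpi1 window held neither. Over all RefSeq windows of this length, ACGTG was found in 16.6% of 32851 and GCGTG in 28.2%. Counted per gene over any of its windows, ACGTG was present in 4 of the 10 genes (Hk2, Aldoa, Pgk1 and Ldha), against 18.5% of 27025 genes. GCGTG was present in 6 of the 10 (Hk1, Pfkl, Pfkp, Aldoc, Eno1 and Ldha), against 30.9% of all genes. A gene with more windows has more places for a match. Of the 17 windows of the 10 genes, 29.4% held ACGTG and 52.9% held GCGTG. Among 16 other glycolytic genes, counted per gene, the shares were 31.2% for ACGTG and 43.8% for GCGTG. A match describes the letters in the window only, and no binding was measured.

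Array quality and cell type markers were read first. All 9 arrays had 62.27% to 68.34% of probes well above background, and no spot was saturated. The 10 podocyte genes, which mark the filtering epithelium, were all well above background on every array. Genes of other kidney cells were also present. The median log2 signal of 15 proximal tubule genes was 0.19, 3.03 and 0.29 on the enarodustat arrays, 0.05, 0.93 and -2.20 on the ob/ob vehicle arrays and 1.103, 0.11 and 3.84 on the wild-type arrays, so enarodustat replicate 2 and wild-type replicate 3 stood apart at the high end and ob/ob vehicle replicate 3 at the low end. The median of 10 distal nephron genes was 1.53, 2.41 and 1.04 with enarodustat, -2.61, -0.61 and 0.56 in ob/ob vehicle and -2.67, -0.78 and 1.20 in wild type. Every enarodustat array was thus above every ob/ob vehicle array in distal nephron signal, and the wild-type arrays overlapped both. The median of 12 macrophage genes was 1.37, 0.95 and 0.86 with enarodustat, 1.67, 1.18 and 1.35 in ob/ob vehicle and -0.20, -0.02 and -0.85 in wild type. The podocyte median was 5.04, 4.48 and 5.17 with enarodustat, 5.07, 5.19 and 5.21 in ob/ob vehicle and 5.86, 5.91 and 5.89 in wild type. The median of 9 mesangial genes was 4.71, 4.59 and 4.77 with enarodustat, 4.76, 5.14 and 4.30 in ob/ob vehicle and 3.66, 3.17 and 2.72 in wild type. That of 6 erythrocyte genes was 1.33, 0.42 and 1.85 with enarodustat, 0.19, 0.15 and 0.78 in ob/ob vehicle and 0.52, -1.21 and -0.55 in wild type. Enarodustat replicate 3 lay alone on slide 2, and the other 8 arrays on slide 1. In bulk tissue, more cells of a type and more RNA per cell cannot be told apart.

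**Figure D1:**
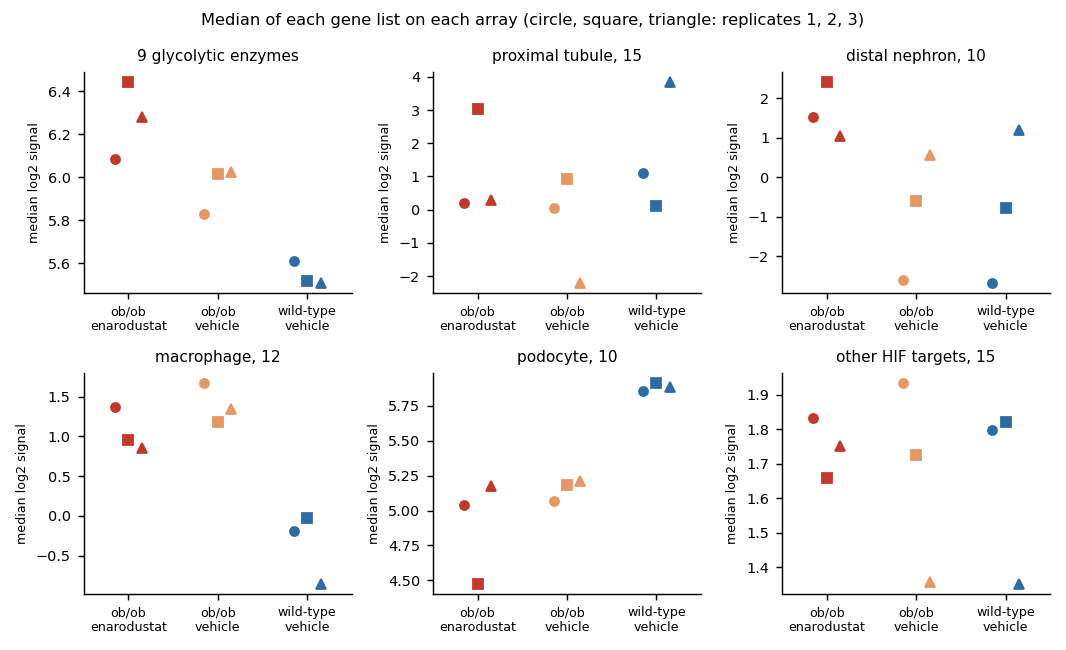
Median log2 signal of 6 gene lists, relative to the 75th percentile of each array, for the ob/ob enarodustat, ob/ob vehicle and wild-type vehicle groups; each point is an array. The glycolytic median is at 6.08 to 6.44 with enarodustat, 5.83 to 6.03 in ob/ob vehicle and 5.51 to 5.61 in wild type, and the distal nephron list is above every ob/ob vehicle array on the 3 enarodustat arrays.

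Enarodustat was first compared with vehicle in ob/ob glomeruli. At an adjusted p of 0.05, limma called none of the 24161 features (0%) and none of the 9 genes, while 1693 features had an unadjusted p under 0.05. Within that limit, all 9 glycolytic genes had a log2 change above 0, against 44.7% of all features, although those of Hk1 and Pfkp were 0.00 to 2 decimals and turned below 0 with median scaling of the arrays, Hk1 also with quantile normalization and after normexp. An unadjusted p under 0.05 was reached by 6 of the 9, all with higher values under enarodustat, where 7.01% of all features reached it and 3.42% did so upwards. For the same number, 6 of 9, the 3 enarodustat arrays all lay above the 3 ob/ob vehicle arrays, against 6.51% of all features. The median change of the 9 genes was 0.32, against -0.03 over all features. The largest change was that of Aldoc (3.28 ± 0.72, SE of the fit), followed by Pfkl (0.74 ± 0.14) and Gpi1 (0.44 ± 0.10).

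Enarodustat-fed ob/ob mice were next set against wild-type mice, a comparison that holds the effects of genotype and drug together. Here limma called 10.2% of all features, 6.1% higher and 4.09% lower. Of the 9 genes, 6 were called higher and none lower: Gpi1, Pfkl, Aldoa, Aldoc, Pgk1 and Ldha. In the same comparison 4 of 6 erythrocyte genes (median change 3.26), 7 of 12 macrophage genes (1.33) and 3 of 9 mesangial genes (0.87) were called higher, and 7 of 10 podocyte genes lower (-1.05). The 10 distal nephron genes had a median change of 1.77, all above 0, with 1 called higher. The 15 proximal tubule genes had a median of -0.82, all below 0, with none called. The part of these cell types in the glycolytic values was not tested beyond covariates for tubule signal, described below. Among the 6 called glycolytic genes, log2 changes ran from 0.59 for Gpi1 to 2.80 for Aldoc. Hk1, Pfkp and Eno1 were not called. Unadjusted, 7 of the 9 reached a p under 0.05, where 26.8% of all features did. The enarodustat arrays lay above all wild-type arrays for 7 of 9, the called genes and Eno1, against 16.8% of all features. The median change was 0.65, against -0.01 over all features. Without enarodustat replicate 2 and wild-type replicate 3, the arrays high in proximal tubule signal, only Pfkl and Aldoa were still called.

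For ob/ob vehicle against wild type, limma called 7.55% of all features, 4.89% higher and 2.66% lower, and none of the 9 genes in either direction. Unadjusted, 4 of the 9 reached a p under 0.05, where 23.6% of all features did. The ob/ob arrays lay above the wild-type arrays for 6 of 9, against 17.8% of all features. The median change was 0.33, against 0.02 over all features. These values rest on the brightest probe of each gene. With the mean of the probes of a gene the median change was 0.084, the lowest over the 24 alternatives, where the highest was 0.41. Aldoa came closest to a call (0.37 ± 0.10, adjusted p = 0.0685), and was called after normexp background correction (adjusted p = 0.0287) and with array weights (0.0206). The 3 comparisons share arrays in pairs, so that their changes are not independent of each other.

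**Figure D2:**
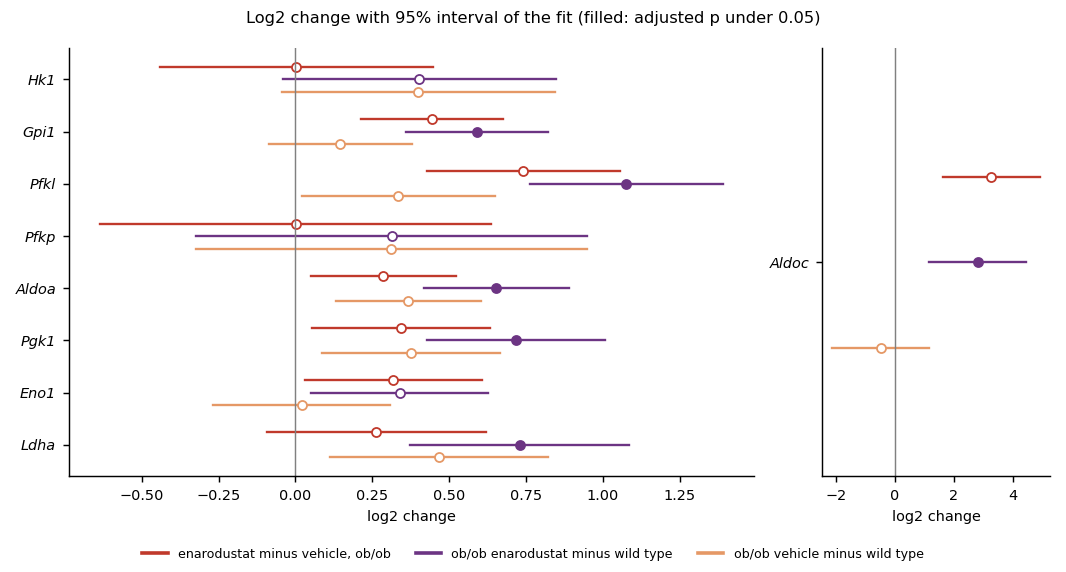
Log2 change of the 9 tested genes in the 3 comparisons, with the 95% interval of the limma fit; filled points have an adjusted p under 0.05, and Aldoc has an axis of its own. The 6 filled points all belong to enarodustat against wild type, and the Aldoc change with enarodustat against vehicle is 3.28.

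The first step of glycolysis is the phosphorylation of glucose by a hexokinase. Hk1, the broadly expressed hexokinase, had log2 signals of 6.36, 6.44 and 6.28 with enarodustat, 6.34, 6.35 and 6.38 in ob/ob vehicle and 6.30, 6.10 and 5.47 in wild type. The ob/ob groups overlapped, and wild-type replicate 3, the array with the most proximal tubule signal, was the lowest. The change with enarodustat against vehicle was 0.00 ± 0.19, with a 95% interval from -0.44 to 0.45. Both ob/ob groups were 0.40 above wild type, which was not called (adjusted p = 0.228 with enarodustat and 0.261 with vehicle), and without wild-type replicate 3 the change was 0.16 in each. The probe of these values lies at chr10:61731230-61731288 on build mm9, the build of the array files. A dimmer Hk1 probe had a change of 0.52 for enarodustat against wild type, called when each probe was tested alone (adjusted p = 0.0437). The 4 testable Hk1 probes did not share a sign in any of the 3 comparisons, and 1 of 5 was too dim to test.

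Hk2, the insulin-responsive hexokinase and a strong HIF target in many cells, is measured by 1 probe at chr6:82675056-82675115. It had log2 signals of -5.00, -4.91 and -5.73 with enarodustat, -6.39, -4.86 and -5.72 in ob/ob vehicle and -5.90, -5.85 and -6.38 in wild type. It was well above background on 1 array only, ob/ob vehicle replicate 2, so no fold is given for it.

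Gpi1, glucose-6-phosphate isomerase, converts glucose 6-phosphate to fructose 6-phosphate. Its signals were 6.51, 6.70 and 6.54 with enarodustat, 6.11, 6.08 and 6.22 in ob/ob vehicle and 5.95, 6.02 and 6.01 in wild type. The groups did not overlap, with enarodustat highest and wild type lowest. Enarodustat and vehicle differed by 0.44 ± 0.10, a fold of 1.36, with an unadjusted p of 0.00203 in limma and an adjusted p of 0.604. Gpi1 rose by 0.59 ± 0.10 against wild type (adjusted p = 0.0106), while ob/ob vehicle differed from wild type by 0.15 ± 0.10 (adjusted p = 0.433). Its 4 probes, the brightest at chr7:34987178-34987237, had changes of 0.39 to 0.51 with enarodustat against vehicle, and 3 of the 4 were called against wild type. For ob/ob vehicle against wild type the 4 probes ran from -0.07 to 0.23 and did not share a sign.

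Phosphofructokinase commits fructose 6-phosphate to glycolysis. Pfkl, the liver-type subunit, had signals of 0.68, 0.87 and 0.85 with enarodustat, 0.26, -0.04 and -0.04 in ob/ob vehicle and -0.31, -0.43 and -0.09 in wild type. Enarodustat arrays were all highest and wild-type arrays all lowest. Against vehicle, Pfkl differed by 0.74 ± 0.14, or 1.67-fold, with an unadjusted p of 0.000529 that ranked 30 among all features in limma (adjusted p = 0.418). Pfkl rose by 1.08 ± 0.14 against wild type, or 2.11-fold (adjusted p = 0.00433). That call held in each of the 24 alternatives tried. These values are of the main probe, at chr10:77450926-77450985. The second testable Pfkl probe had 1.01 with enarodustat against vehicle. For ob/ob vehicle against wild type it had -0.09, where the main probe had 0.33.

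Pfkp, the platelet-type subunit, had signals of 1.31, 2.22 and 1.72 with enarodustat, 1.22, 2.02 and 2.00 in ob/ob vehicle and 1.47, 1.24 and 1.59 in wild type. The 3 groups overlapped. The change with enarodustat against vehicle was 0.00 ± 0.28, with a 95% interval from -0.64 to 0.64, which still includes changes of the size seen for Gpi1. These values are of its brightest probe, at chr13:6580589-6580648. Its dimmer probes had changes of 0.18 to 0.54 with enarodustat against vehicle, and the mean of its probes had 0.24. None of its 5 probes was called in any comparison.

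Aldolase splits fructose 1,6-bisphosphate into triose phosphates. Aldoa, the muscle-type and widely expressed form, had signals of 7.54, 7.70 and 7.71 with enarodustat, 7.27, 7.36 and 7.46 in ob/ob vehicle and 6.98, 7.01 and 7.001 in wild type. The 3 groups did not overlap. Aldoa rose by 0.65 ± 0.10 against wild type with enarodustat, or 1.57-fold (adjusted p = 0.0083). Against vehicle the difference was 0.29 ± 0.10 (adjusted p = 0.708). The single Aldoa probe lies at chr7:133938816-133938875.

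Aldoc, the brain-type aldolase, had signals of 1.08, 2.23 and 1.39 with enarodustat, -2.77, -1.36 and -0.997 in ob/ob vehicle and -2.66, -1.26 and 0.20 in wild type. The enarodustat arrays lay above all others, and the other groups overlapped, with SDs of 0.94 in ob/ob vehicle and 1.43 in wild type. Enarodustat and vehicle differed by 3.28 ± 0.72, or 9.68-fold, the fifth largest increase of all features tested, with an unadjusted p of 0.0016 and an adjusted p of 0.598 in limma. Aldoc rose by 2.80 ± 0.72 against wild type (adjusted p = 0.044), a call lost in 11 of the 24 alternatives (adjusted p from 0.0541 to 0.119 there). All 3 probes, at chr11:78139897-78140257, had changes of 3.04 to 3.39 with enarodustat against vehicle.

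Aldoc followed the distal nephron genes from array to array. Its Pearson r with the mean of the 10 distal nephron genes was 0.95 over the 9 arrays, the highest of the 9 glycolytic genes, where Hk1 had -0.14 and the others 0.55 to 0.78. Both values come from the same 9 arrays. With that mean as a covariate, which was added once the values were known, the Aldoc change with enarodustat against vehicle was 1.59 in place of 3.28 (adjusted p = 0.682), and that against wild type was 1.20 and remained called (adjusted p = 0.0176). The Pfkl change against vehicle was 0.74 with and without this covariate, Gpi1 had 0.38 in place of 0.44, and Ldha had 0.08 in place of 0.26. Against wild type, Ldha had 0.55 with this covariate and was no longer called (adjusted p = 0.0943 in limma). Gpi1 and Pgk1 kept their calls there (adjusted p = 0.0429 and 0.0495), as did Pfkl and Aldoa (0.0172 and 0.0335). Umod, the uromodulin gene of the thick ascending limb, had signals of 4.92, 5.86 and 5.45 with enarodustat, 1.103, 3.97 and 3.83 in ob/ob vehicle and 2.42, 3.32 and 6.18 in wild type. All 10 distal nephron genes had a change above 0 with enarodustat against vehicle, with a median of 2.23, and none was called. The part that distal nephron tissue in the preparations has in the Aldoc values was not tested beyond this covariate.

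**Figure D3:**
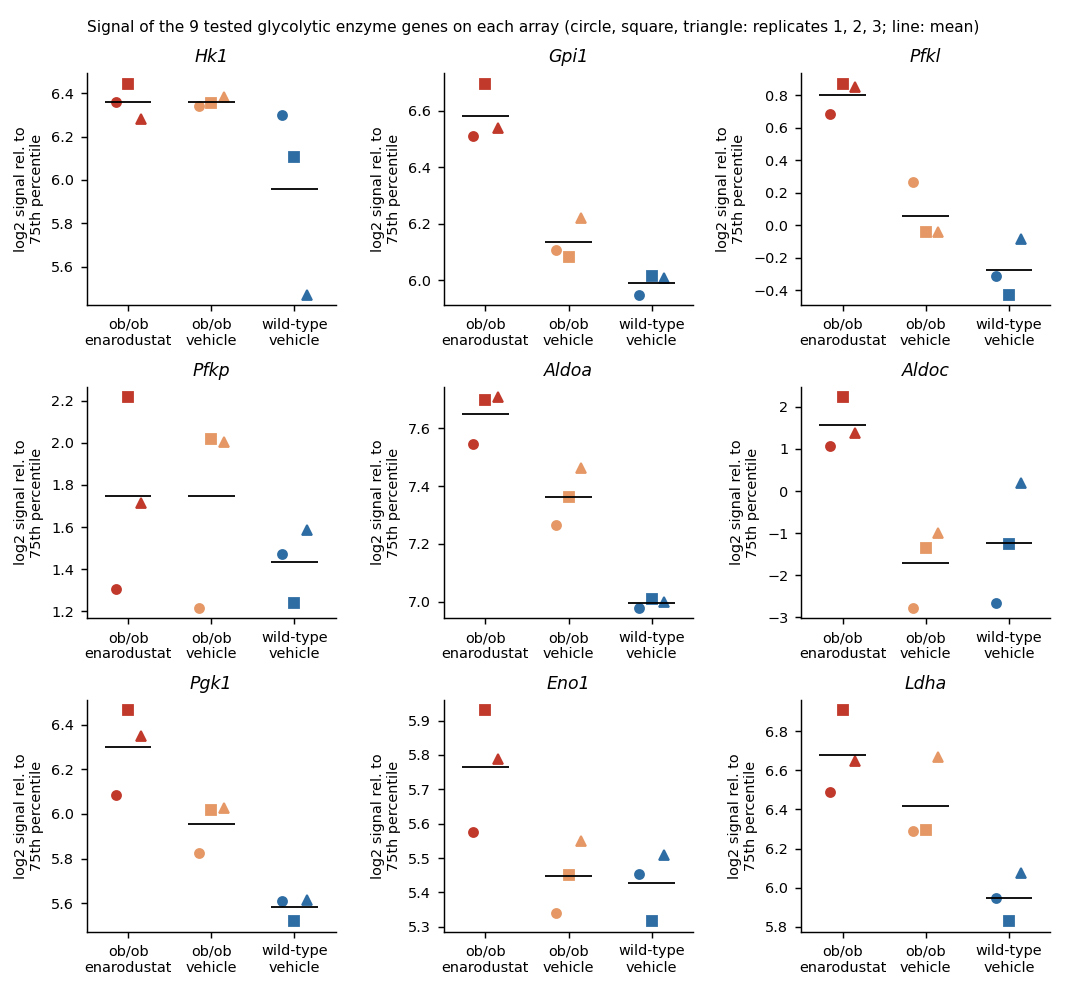
Log2 signal of the 9 tested genes on each array relative to its 75th percentile, for ob/ob enarodustat, ob/ob vehicle and wild-type vehicle, with the mean as a line; axes differ between genes. On the brightest probe of each gene, Gpi1, Pfkl, Aldoa and Pgk1 have 3 separate groups. The enarodustat arrays of Aldoc lie at 1.08 to 2.23, and Pfkp overlaps throughout.

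The later steps of the pathway yield energy. Pgk1, phosphoglycerate kinase, makes ATP from 1,3-bisphosphoglycerate, and had signals of 6.08, 6.46 and 6.35 with enarodustat, 5.83, 6.02 and 6.03 in ob/ob vehicle and 5.61, 5.52 and 5.61 in wild type. The 3 groups again did not overlap. Pgk1 rose by 0.72 ± 0.13 with enarodustat against wild type, or 1.64-fold (adjusted p = 0.0115). The change with enarodustat against vehicle was 0.34 ± 0.13 (adjusted p = 0.708), and that of ob/ob vehicle against wild type was 0.38 ± 0.13 (adjusted p = 0.117). Its bright probe lies at chrX:103398915-103398974, and the second, far dimmer probe was listed on the opposite strand and was not called.

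Eno1, alpha-enolase, makes phosphoenolpyruvate, and had signals of 5.58, 5.93 and 5.79 with enarodustat, 5.34, 5.45 and 5.55 in ob/ob vehicle and 5.45, 5.32 and 5.51 in wild type. The enarodustat arrays lay above all others. The change was 0.32 ± 0.13 against ob/ob vehicle (adjusted p = 0.708) and 0.34 ± 0.13 against wild type (adjusted p = 0.129), while ob/ob vehicle differed from wild type by 0.02 ± 0.13. Eno1 has a near-identical copy, Eno1b, which 1 of its 3 probes also lists, so its signal may include that copy. The probe used lies at chr4:149622928-149622987. The dimmest Eno1 probe had 1.27 against wild type and was called when probes were tested alone (adjusted p = 0.036).

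Ldha, the lactate dehydrogenase subunit that favours lactate formation, had signals of 6.49, 6.91 and 6.65 with enarodustat, 6.29, 6.30 and 6.67 in ob/ob vehicle and 5.95, 5.83 and 6.07 in wild type. Both ob/ob groups lay above wild type and overlapped each other. Ldha rose by 0.73 ± 0.16 with enarodustat against wild type, or 1.66-fold (adjusted p = 0.0234), a call lost in 9 of the 24 alternatives (adjusted p from 0.059 to 0.0943 there). The change with enarodustat against vehicle was 0.26 ± 0.16, with a 95% interval from -0.09 to 0.62, and that of ob/ob vehicle against wild type was 0.47 ± 0.16 (adjusted p = 0.114). The Ldha window printed above held 5 ACGTG matches beside this change of 0.26, and the Gpi1 window held none beside 0.44. Neither the difference between these changes nor a relation of matches to change was tested. The Ldha probe used lies at chr7:54110937-54110996. Another, dimmer Ldha probe had 0.51 with enarodustat against wild type, not called when probes were tested alone (adjusted p = 0.185 in limma). That probe had 0.36 with enarodustat against vehicle and 0.15 for ob/ob vehicle against wild type.

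**Figure D4:**
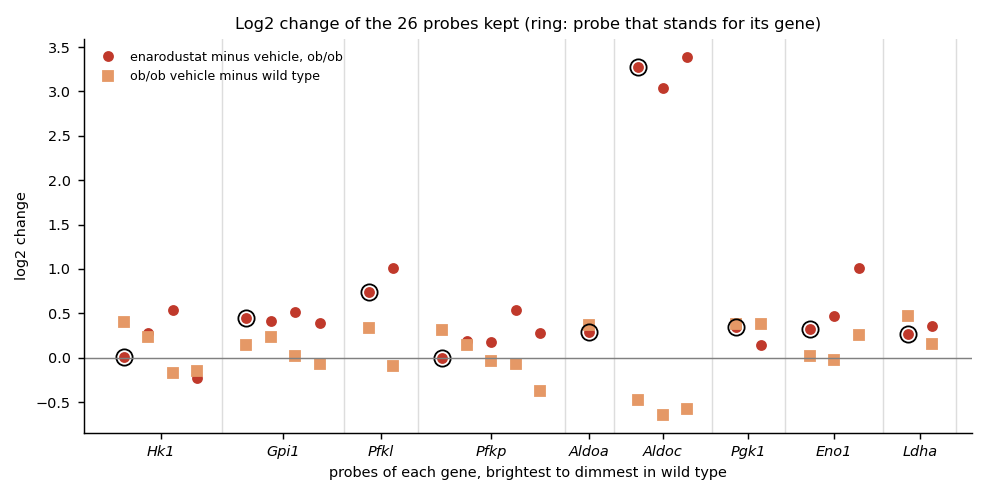
Log2 change of each of the 26 testable probes, brightest to dimmest in wild type within a gene, for enarodustat minus vehicle in ob/ob mice and for ob/ob vehicle minus wild type; a ring marks the probe that stands for its gene. The 3 Aldoc probes lie at 3.04 to 3.39 with enarodustat. The probes of Hk1, Gpi1, Pfkl, Pfkp and Eno1 lie on both sides of 0 for ob/ob vehicle minus wild type.

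Across the 9 arrays the genes moved together to different degrees. Of 36 pairs, 35 had a Pearson r above 0, with a median of 0.739 and a range from -0.032 for Hk1 and Aldoc to 0.978 for Aldoa and Pgk1. These coefficients are over 9 arrays that share the group differences. After each gene was centred on its own mean, the mean of the 9 genes was 0.49 ± 0.21 with enarodustat, -0.14 ± 0.19 in ob/ob vehicle and -0.35 ± 0.15 in wild type (SD, n = 3). Aldoc weighs most in these group means, with 1.57, -1.71 and -1.24 in the same order before centring. The median of the 9 genes, on which Aldoc weighs less, averaged 6.27, 5.96 and 5.55 in these groups. The features with the most similar pattern over the 9 arrays were Rgs11 (r = 0.984), Apoc1 (0.98), Defb2 (0.977), Ccdc106 (0.976) and Eno1b (0.974). Because Aldoc varied most, it weighs most in that mean, and without Aldoc the r was 0.876 for Rgs11 and 0.929 for Eno1b. Eno1b is the near-identical copy of Eno1, which is in that mean, so its r may in part be that of Eno1.

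The other enzymes of the pathway gave the same number of calls against wild type. Of 15 tested, none was called with enarodustat against vehicle, and 6 were called higher against wild type, again where 6.1% of features were. These were Hkdc1 (4.04 ± 1.06, adjusted p = 0.0477), a putative hexokinase described further on, the triose isomerase gene Tpi1 (0.79 ± 0.18, adjusted p = 0.0273), Gapdh (0.59 ± 0.13, adjusted p = 0.0254), the mutase gene Pgam1 (0.38 ± 0.10, adjusted p = 0.0483), the neuronal enolase gene Eno2 (0.82 ± 0.19, adjusted p = 0.0299) and the pyruvate kinase gene Pkm (0.75 ± 0.13, adjusted p = 0.0115). Hkdc1 passed the filter on dim probes only through the enarodustat group, where it was high. Its call is therefore no support for that count, and its size of change rests partly on values at background. For ob/ob vehicle against wild type, Eno3, the muscle enolase, rose (0.71 ± 0.16, adjusted p = 0.0351). Most of these calls were lost in part of the 24 alternatives: Pgam1 in 20, Eno3 in 14, Tpi1 in 10, and Gapdh and Eno2 in 9 each. Hkdc1 lost its call in 11 of the 23 that could test it, and Pkm kept its call in all 24.

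A few of these enzymes had large changes with enarodustat against vehicle that did not pass. They were chosen after their values were seen. Pgam2, the muscle mutase, had signals of 3.22, 4.25 and 3.60 with enarodustat, -1.03, 1.67 and 1.70 in ob/ob vehicle and -1.10, -0.13 and 2.55 in wild type, with a change of 2.91 ± 1.00 (adjusted p = 0.708). Hkdc1 had -2.07, -0.20 and -1.14 with enarodustat, -6.59, -3.60 and -2.82 in ob/ob vehicle and -6.65, -5.29 and -3.58 in wild type, with a fitted change of 3.20 ± 1.06. Hkdc1 was well above background on all 3 enarodustat arrays but on only 2 ob/ob vehicle arrays and 1 wild-type array. It passed the filter through the enarodustat group alone, so that its size of change rests partly on values at background. Ldhb, the subunit that favours pyruvate formation, had 4.57, 5.65 and 4.93 with enarodustat, 2.45, 3.77 and 3.81 in ob/ob vehicle and 2.95, 3.25 and 4.96 in wild type, with 1.71 ± 0.58. As for Aldoc, the enarodustat arrays of each lay above every ob/ob vehicle array. Their r with the distal nephron mean over the 9 arrays was 0.972 for Pgam2, 0.946 for Hkdc1 and 0.961 for Ldhb, and with that mean as a covariate the Hkdc1 change was 0.77.

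**Figure D5:**
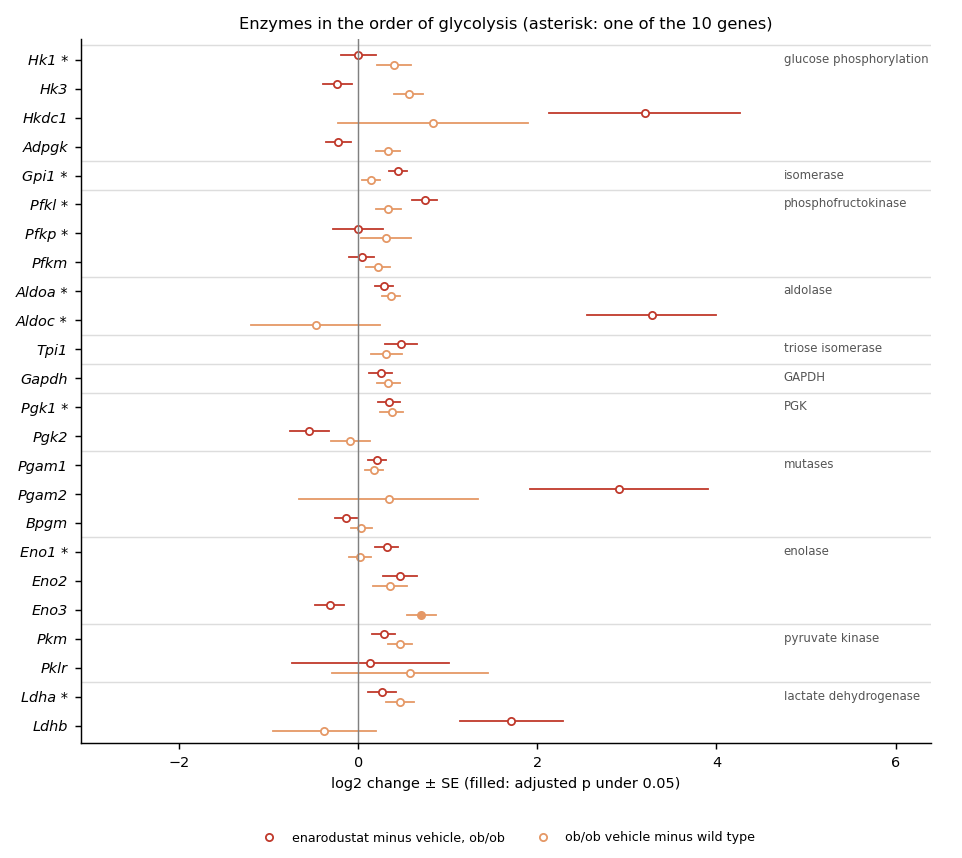
Log2 change ± SE of 24 glycolytic enzyme genes in reaction order, for enarodustat minus vehicle in ob/ob mice and for ob/ob vehicle minus wild type; filled points have an adjusted p under 0.05. Aldoc, Hkdc1 and Pgam2 lie near 3 with enarodustat, Hkdc1 against a vehicle group with 1 array not well above background, and the filled point is Eno3 in ob/ob vehicle against wild type.

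Enzymes around the pathway were described from fixed lists. Of 5 enzymes that set the level of fructose 2,6-bisphosphate, the activator of phosphofructokinase, none was called with enarodustat against vehicle. Pfkfb1 rose in both ob/ob groups against wild type (0.77 ± 0.15 with enarodustat and 0.83 ± 0.15 with vehicle, adjusted p = 0.0149 and 0.0124), and Pfkfb3 rose with enarodustat (1.097 ± 0.26, adjusted p = 0.0323). The Pfkfb3 call was lost in 14 of the 24 alternatives, and each Pfkfb1 call in 1. Of 5 gluconeogenic genes none was called in any comparison. The smallest p values with enarodustat against vehicle were those of Fbp1 (1.62 ± 1.08) and Pcx (1.03 ± 0.73), and both had their highest enarodustat value in replicate 2, the array with most proximal tubule signal in that group. Of 8 pentose phosphate genes, H6pd rose in both ob/ob groups against wild type (1.00 ± 0.26 with enarodustat and 1.33 ± 0.26 with vehicle, adjusted p = 0.045 and 0.0182), Pgd rose with vehicle (0.45 ± 0.10, adjusted p = 0.0352), and Rpia fell by 0.69 ± 0.17 with enarodustat (adjusted p = 0.0362). Over the 24 alternatives, H6pd lost its call in 14 with enarodustat and in 5 with vehicle, Pgd in 16 and Rpia in 13. Of 14 genes of side branches, the glycogen phosphorylase gene Pygl rose (1.33 ± 0.26, adjusted p = 0.016) and the glycerol phosphate dehydrogenase gene Gpd2 fell by 0.68 ± 0.15 (adjusted p = 0.0265) with enarodustat against wild type. These calls were lost in 6 alternatives for Pygl and 9 for Gpd2.

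Of 15 other HIF targets, none was called with enarodustat against vehicle, 4 were called higher and 1 lower with enarodustat against wild type, and 2 higher and 1 lower with vehicle against wild type. Slc16a3, which exports lactate, had signals of 0.35, 0.72 and 0.48 with enarodustat, -0.34, -0.40 and -0.17 in ob/ob vehicle and -0.94, -1.15 and -1.26 in wild type. The 3 groups were separate and in the order of those of the main Pfkl probe. Slc16a3 rose by 1.63 ± 0.14 with enarodustat against wild type (adjusted p = 0.00131) and had 0.82 ± 0.14 against vehicle (adjusted p = 0.377). Bnip3, a mitophagy receptor, had 3.26, 3.68 and 3.55 with enarodustat, 2.74, 2.37 and 2.62 in ob/ob vehicle and 2.40, 2.30 and 2.60 in wild type. It rose by 1.06 ± 0.16 against wild type (adjusted p = 0.0067) and had 0.92 ± 0.16 against vehicle (adjusted p = 0.377). Pdk1, which restrains pyruvate entry into mitochondria, rose by 1.80 ± 0.22 against wild type with enarodustat (adjusted p = 0.00371), and its probes disagreed in sign. Without enarodustat replicate 2 or 3, another probe stood for Pdk1 and the change was -0.16 or -0.20, not called. With vehicle against wild type, the 2 called higher were Slc16a3 (0.81 ± 0.14) and Pdk1 (0.92 ± 0.22), and the Pdk1 call held in 9 of the 24 alternatives. Ankrd37 rose by 1.72 ± 0.39 with enarodustat against wild type (adjusted p = 0.0299), a call lost in 10 of the 24 alternatives. Vegfa, an angiogenic factor made by podocytes, fell against wild type in both ob/ob groups. In limma it fell by 1.16 ± 0.18 with enarodustat (adjusted p = 0.00786) and by 0.72 ± 0.18 with vehicle (adjusted p = 0.0469). All 10 podocyte genes had a change below 0 in the same comparisons, and 7 and 5 of them were called lower. The Vegfa call with vehicle was lost in 14 of the 24 alternatives. The part of podocyte signal in the Vegfa values was not tested. Slc2a1, the glucose transporter GLUT1, had 0.97, 1.42 and 1.04 with enarodustat, 0.72, 0.97 and 1.11 in ob/ob vehicle and 1.27, 1.20 and 1.16 in wild type. The enarodustat arrays overlapped both other groups, while every ob/ob vehicle array lay below every wild-type array.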

How the data were processed

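Per the labels' protocols, glomerular RNA was labelled with Cy3 for one-colour Agilent arrays. Per the file headers, the authors used Agilent Feature Extraction 11.5.1.1 and deposited spot intensity on a linear scale, background-subtracted and not normalized between arrays. The deposited value table of the authors holds log2 values that matched the log2 processed signal of each array minus a constant (r = 1.0), with column medians of -3.10 to -2.93 and no centring of genes. Its scale, centring and direction were found in this way, as none is stated. Limma also appears in the submitters' processing notes, with no role given.

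From each array's 62976 spots, 3671 controls were left out, and 32 probes with only outlier spots were removed. Values are log2 of the processed signal minus the array's 75th percentile. Probes well above background on all 3 arrays of any group were kept (36671 probes), and the probe with the highest mean stood for its gene. Names come from the RefSeq table of GRCm38.p6 (32975 probes by accession, 10221 by symbol, 518 by synonym, 2129 kept as in the files and 10730 without a name). Limma 3.58.1 in R 4.3.3 (lmFit, contrasts.fit and eBayes) fitted 3 groups to all 9 arrays, with Benjamini-Hochberg adjustment over the features and calls at an adjusted p under 0.05. The fit was tested on simulated data. Figures were drawn with matplotlib 3.10.9. Promoter windows are the 250 bases before the start in RefSeq, GRCm38.p6. Precision is limited by the number of arrays, and levels are not compared between probes.

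The 10 genes and all lists were chosen with earlier results of these data known. Some genes of the lists are not reported here. Named genes are the 10, every called gene of the pathway lists (the 2 with the smallest p where none was called), and the 5 features most like their mean. Pgam2, Ldhb, Umod and Slc2a1 were chosen after their values were seen. Alternatives covered normalization, background, filters, probes, blocks, weights, tubule covariates and left-out arrays.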

Additional observations from a re-analysis of the deposited data

How the results depend on the processing

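Counts of the 9 tested genes called were recomputed under 24 alternatives, one of them (the distal nephron covariate) added after seeing the data. For enarodustat against vehicle the count was 0 under all 24. For ob/ob vehicle against wild type it was 0, except 1 after normexp background correction and 4 with array weights. For enarodustat against wild type it was 6 in the main fit and 2 without the arrays high in proximal tubule signal (enarodustat replicate 2 and wild-type replicate 3); without any 1 array it was 4 to 6, on slide 1 alone 4, with no filter on dim probes 4, with the distal nephron covariate 5 and with array weights 7. With the replicate number as a block it was 6, and the block changed no call of these genes. Deviations of same-numbered arrays from their group means had r from -0.308 to 0.272, above 0.1 in 4 of 9 pairs. The labels do not say whether the numbers pair the samples, and with 3 arrays in each group these r cannot decide it. Over all features, enarodustat against vehicle had 5 calls without enarodustat replicate 3 and 0 otherwise; ob/ob vehicle against wild type had 694 with the proximal tubule covariate to 4179 with array weights, in place of 1824; enarodustat against wild type had 1148 without the 2 arrays high in tubule signal to 4526 with array weights, in place of 2462. By array, the count for ob/ob vehicle against wild type was 923 without ob/ob vehicle replicate 1, 1090 without replicate 3, 1187 without replicate 2, 968 without wild-type replicate 2 and 1150 without wild-type replicate 3; that for enarodustat against wild type was 1214 without wild-type replicate 2, and 1440, 1581 and 1373 without enarodustat replicates 1, 2 and 3. Gpi1 lost its call against wild type in 1 alternative (adjusted p = 0.051), and Pgk1 in 2.

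Some changes turned sign, none called in the turned direction. With enarodustat against vehicle, Hk1 had -0.035 after quantile normalization, -0.059 with median scaling, -0.0030 after normexp, -0.0049 with array weights, -0.0059 without ob/ob vehicle replicate 1 and -0.038 without enarodustat replicate 2, alone or with wild-type replicate 3, and at most 0.044 without any 1 array. Pfkp had -0.061 with median scaling, -0.13 with array weights, -0.12 with the proximal tubule covariate, -0.39 with the distal nephron covariate, -0.26 without ob/ob vehicle replicate 1 and -0.24 without enarodustat replicate 2, and at most 0.22 without any 1 array. Pfkfb1 had 0.037 with the distal nephron covariate and 0.022 without enarodustat replicate 1, and H6pd had -0.56 to 0.012 without any 1 array, the highest without ob/ob vehicle replicate 3. For ob/ob vehicle against wild type, Eno1 had -0.13 after quantile normalization, -0.15 after normexp, -0.034 without wild-type replicate 2, -0.032 without ob/ob vehicle replicate 3 and at most 0.074 without any 1 array. Gpi1 had -0.043 after normexp, and Pfkp -0.0053 with the mean of its probes. Aldoc had 0.14 with the proximal tubule covariate, 0.25 without wild-type replicate 3, 0.059 without ob/ob vehicle replicate 1 and -1.18 without wild-type replicate 1. For enarodustat against wild type, Pfkp had -0.062 with the distal nephron covariate, and Pgd -0.0096 with the mean of its probes. Pdk1 was represented by another probe in some settings: after normexp it had -0.021 with enarodustat against vehicle, -0.13 with enarodustat against wild type and -0.11 with ob/ob vehicle against wild type. Without enarodustat replicate 2 these were -0.020, -0.16 and -0.14, without replicate 3 -0.053, -0.20 and -0.14, without the 2 arrays high in tubule signal -0.020, -0.22 and -0.20, and with only the 2 groups compared -0.14 for ob/ob vehicle against wild type. Without any 1 array, Pdk1 reached at most 1.08, 2.00 and 1.06 in these comparisons. The cause of these turns was not tested beyond the change of probe.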
